A study of Mus musculus with 12 samples.

Results

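Expression of the interleukin 1 family and its antagonists was followed on arrays of mouse skin at 3 times after intradermal injection of RNAdjuvant. The genes were chosen by name, as the probe sets of the platform annotation that carry the single symbol Il1a, Il1b, Il1rn, Il18, Il33, Il1r1, Il1r2, Il1rl1, Il1rap or Il18bp. Of these 10 genes, 8 had such a probe set, among 19938 genes measured in all, and each of the 8 had 1 probe set. Il1r1 and Il1rl1, which encode the signalling receptor of interleukin 1 and the IL-33 receptor ST2, had none and were not analysed here. The 12 libraries came from skin of female Balb/c mice: 3 from untreated mice, and 3 each from mice given RNAdjuvant (labelled as a 25 mg dose, whose unit is unverified) 1.5 h, 6 h or 24 h before the biopsy. RNAdjuvant is an RNA-based vaccine adjuvant. An injection of carrier alone was not analysed here, so the RNA, its carrier and the needle cannot be told apart. Values are log2 intensities, a change is a difference of group means on that scale, and a gene is said to have risen or fallen where limma gave an adjusted p under 0.05 over all 19938 genes.

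Interleukin 1 alpha and beta, interleukin 18 and IL-33 are cytokines that act through related receptors and the adaptor MyD88 to switch on NF-kB. Interleukin 1 beta and interleukin 18 are made as inactive precursors and cut by caspase-1 in inflammasomes, whereas interleukin 1 alpha and IL-33 can act as alarm signals when cells of a barrier such as the epidermis are damaged. The family has its own brakes: the receptor antagonist Il1rn blocks the interleukin 1 receptor, the decoy receptor Il1r2 binds interleukin 1 without signalling, and the secreted protein Il18bp binds interleukin 18.

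The upstream sequences of 3 genes with unlike time courses are shown because they let a reader see what lies in front of the start of Il18bp, which was highest at 24 h, of Il1b, which rose at 6 h and 24 h, and of Il1a, for which no call was made. They are the 250 bases before the annotated start, 5′ to 3′ on the gene's strand, from RefSeq (GRCm38.p6), at chr7:102018233-102018482, chr2:129371140-129371389 and chr2:129309973-129310222, each on the minus strand. Capitals mark matches on either strand to TATAAA or to the AP-1 motif TGANTCA.
Il18bp: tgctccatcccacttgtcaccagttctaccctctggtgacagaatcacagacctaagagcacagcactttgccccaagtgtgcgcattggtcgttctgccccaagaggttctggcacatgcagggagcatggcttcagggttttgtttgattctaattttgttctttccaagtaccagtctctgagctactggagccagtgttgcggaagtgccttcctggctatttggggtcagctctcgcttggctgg
Il1b: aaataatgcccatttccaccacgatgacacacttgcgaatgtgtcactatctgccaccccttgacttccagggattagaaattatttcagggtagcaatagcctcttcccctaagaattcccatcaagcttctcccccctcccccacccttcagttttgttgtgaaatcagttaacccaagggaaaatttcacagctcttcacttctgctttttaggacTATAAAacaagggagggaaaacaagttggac
Il1a: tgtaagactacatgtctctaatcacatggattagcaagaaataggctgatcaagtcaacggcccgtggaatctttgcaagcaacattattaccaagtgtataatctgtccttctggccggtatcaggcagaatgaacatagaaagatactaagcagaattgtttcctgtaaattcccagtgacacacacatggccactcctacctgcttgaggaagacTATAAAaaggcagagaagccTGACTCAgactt
TATAAA lies at positions -31 to -26 from the start of Il1b and -32 to -27 from that of Il1a, and 12.4% of all 32851 promoter windows of this length hold it. The AP-1 motif lies at positions -12 to -6 of Il1a (6.75% of windows). The Il18bp window holds neither, and none of these 3 windows holds the NF-kB consensus (3.9% of windows), the interferon-stimulated response motif (2.98%) or the STAT motif TTCNNNGAA (7.02%). No motif overlaps another in these windows. Among windows not shown, that of an Il1rn start holds the AP-1 motif at -141 to -135, and those of its other starts do not. TATAAA also lies in windows of Il33, which rose at 6 h, and of Il18, for which no call was made. These are matches of letters in a short window, and factor binding was not measured.

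At 6 h the antagonist genes Il18bp and Il1rn and the cytokine genes Il1b and Il33 rose in the skin, and at 24 h Il18bp and Il1b did. Il18bp had the largest change of the 8 genes at both times, 2.78-fold at 6 h and 4.35-fold at 24 h. By limma, 0 of 8 genes passed at 1.5 h (2 at an unadjusted p under 0.05), where 2.2% of all genes passed, 0.612% upward and 1.59% downward. At 6 h 4 of 8 rose and 0 fell, where 6.09% of all genes passed, 3.38% upward and 2.71% downward. At 24 h 2 of 8 rose and 0 fell, where 3.36% of all genes passed, 2.55% upward and 0.808% downward. The median change of the 8 genes was 0.11, 0.32 and 0.19 at 1.5 h, 6 h and 24 h, beside 0.02, -0.04 and 0 over all genes.

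**Figure D1:**
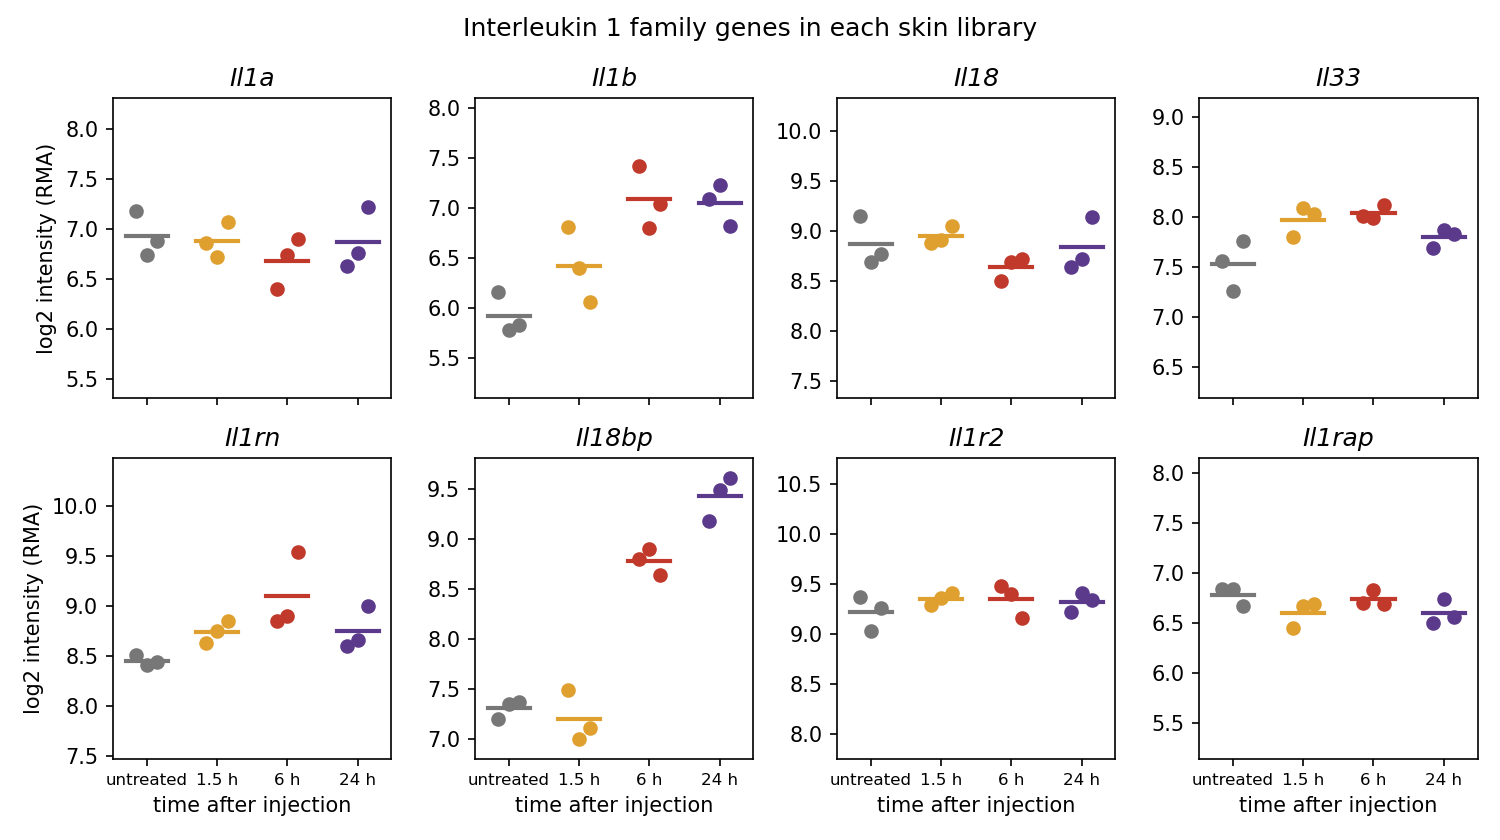
Log2 intensity (vertical axis, spanning 3 log2 units in every panel) of 8 interleukin 1 family genes in untreated skin and 1.5 h, 6 h and 24 h after injection. Each point is a library, replicates 1 to 3 from left to right, and the bar is the mean of 3; Il18bp lies at 8.64 or above in every 6 h and 24 h library and at 7.49 or below in the others.

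Among the cytokines, Il1b, the interleukin made mainly by myeloid cells, measured 6.16, 5.78 and 5.83 in untreated skin, 6.81, 6.4 and 6.06 at 1.5 h, 7.42, 6.8 and 7.04 at 6 h, and 7.09, 7.23 and 6.82 at 24 h. All libraries of 6 h and 24 h lay above the untreated ones, and the 1.5 h libraries overlapped with untreated skin. At 6 h Il1b averaged 7.09 ± 0.31, against 5.92 ± 0.21 in untreated skin (SD, n = 3 each), a 2.24-fold rise (95% interval 1.66 to 3.01, limma adjusted p = 0.00289). At 24 h it averaged 7.05 ± 0.21 (SD, n = 3), 2.18-fold above untreated skin (95% interval 1.62 to 2.93, limma adjusted p = 0.00494). The change at 1.5 h was 0.5 (95% interval 0.07 to 0.93, adjusted p = 0.212, limma), so it did not pass the test over all genes. From low to high the levels of Il1b ran untreated, 1.5 h, 24 h and 6 h. Il1b was 0.66 higher at 6 h than at 1.5 h (adjusted p = 0.0433, limma, where 13.3% of all genes passed, 5.47% upward and 7.8% downward), although the libraries of these times overlap at 6.8 and 6.81. The difference between 24 h and 6 h was -0.04 (95% interval -0.47 to 0.39, limma adjusted p = 0.937), and that between 24 h and 1.5 h was 0.62 (limma adjusted p = 0.132, or 0.0497 with the replicate number as a block). The difference between 6 h and 1.5 h lost its call when 1 of 8 libraries was left out, namely untreated replicates 2 and 3, 1.5 h replicates 2 and 3, the 3 libraries of 6 h and 24 h replicate 1 (limma adjusted p = 0.0505 to 0.139). That between 24 h and 1.5 h gained one without 1.5 h replicate 1 (0.82, limma adjusted p = 0.0391).

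Within their groups, 1.5 h replicate 1 and 6 h replicate 1 had the highest Il1b values. The same libraries were high in Glycam1, a gene of lymph node vessels, at 11.38 and 10.88 against 3.87 to 4.46 in the other 10 libraries. In the same libraries the B cell gene Cd79b measured 7.8 and 7.29, against 4.42 to 5.27 in the others. At 6 h, replicate 1 was also high in Krt18, of glandular epithelium, at 9.14 against 5.25 and 4.93. Both libraries high in Glycam1 also had the highest mean over 10 neutrophil markers, 6.36 and 6.33. Untreated libraries lay at 5.23 to 5.56, the other 1.5 h libraries at 5.74 and 5.81, and the other 6 h libraries at 5.59 and 5.78. Without both libraries the change of Il1b at 6 h was 1 (limma adjusted p = 0.00391) and that at 1.5 h was 0.3 (limma adjusted p = 0.425). At 1.5 h, 6 h and 24 h, 0.612%, 3.38% and 2.55% of all genes rose. Neutrophil markers rose in 3, 2 and 2 of 10 cases at 1.5 h, 6 h and 24 h. Monocyte and macrophage markers rose in 1, 1 and 4 of 9, and their mean level lay at 8.71 to 9.13 at 24 h, against 7.86 to 8.3 in untreated skin. The part of these cells and tissues in the Il1b values was not tested. In whole skin more cells of a type and more RNA per cell cannot be told apart.

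Il33, an alarm cytokine of barrier and stromal cells, measured 7.56, 7.26 and 7.76 in untreated skin, 7.8, 8.09 and 8.03 at 1.5 h, 8.01, 7.99 and 8.12 at 6 h, and 7.69, 7.87 and 7.83 at 24 h. Every library of 1.5 h and 6 h lay above all untreated ones, and those of 24 h overlapped with them. The rise at 6 h was 1.43-fold, to 8.04 ± 0.07 against 7.53 ± 0.25 in untreated skin (SD, n = 3 each, 95% interval 1.18 to 1.74, limma adjusted p = 0.0322). It lost its call without untreated replicate 1 or 2 or any 6 h library (limma adjusted p = 0.0558 to 0.105) as well as with arrays centred on their medians (0.0622) or without both libraries high in Glycam1 (0.052). At 1.5 h the change was 0.45 (95% interval 0.17 to 0.73, limma adjusted p = 0.094), whereas 24 h gave 0.27 (95% interval -0.01 to 0.55, limma adjusted p = 0.306).

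Il1a and Il18, which keratinocytes also make, passed the test at no time. Il1a measured 7.18, 6.74 and 6.88 in untreated skin, 6.86, 6.72 and 7.07 at 1.5 h, 6.4, 6.74 and 6.9 at 6 h, and 6.63, 6.76 and 7.22 at 24 h. Its changes were -0.05, -0.25 and -0.06 (limma adjusted p = 0.913, 0.405 and 0.897), and every group overlapped with untreated skin. The 95% interval at 6 h ran from -0.63 to 0.13. Il18 measured 9.15, 8.69 and 8.77 in untreated skin, 8.88, 8.91 and 9.05 at 1.5 h, 8.5, 8.69 and 8.72 at 6 h, and 8.64, 8.72 and 9.14 at 24 h. Its changes were 0.08, -0.23 and -0.03 (limma adjusted p = 0.835, 0.369 and 0.937), with a 95% interval of -0.36 to 0.29 at 24 h. The mean of 8 keratinocyte markers lay at 11.14 to 11.23 in untreated skin, 10.94 to 11.19 at 1.5 h, 10.8 to 11.05 at 6 h and 10.79 to 10.9 at 24 h, with 0, 0 and 2 of the 8 called, both downward. Of all genes, 1.59%, 2.71% and 0.808% fell at these 3 times.

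Among the antagonists, Il18bp measured 7.2, 7.35 and 7.37 in untreated skin, 7.49, 7 and 7.11 at 1.5 h, 8.8, 8.9 and 8.64 at 6 h, and 9.18, 9.49 and 9.61 at 24 h. Untreated and 1.5 h libraries overlapped, the 6 h libraries lay above both, and the 24 h libraries lay above those of 6 h. At 6 h Il18bp averaged 8.78 ± 0.13, against 7.31 ± 0.1 in untreated skin (SD, n = 3 each, 95% interval of the fold 2.24 to 3.45, limma adjusted p = 1.53e-05). At 24 h it averaged 9.43 ± 0.22 (SD, n = 3, 95% interval of the fold over untreated skin 3.5 to 5.39, limma adjusted p = 8.69e-07), and it ranked 32 of 19938 genes by p in that comparison. At 1.5 h the change was -0.11 (95% interval -0.42 to 0.2, limma adjusted p = 0.749). Il18bp was 2.99-fold higher at 6 h than at 1.5 h (limma adjusted p = 8.74e-06) and 1.56-fold higher at 24 h than at 6 h (95% interval 1.26 to 1.94, limma adjusted p = 0.0313, where 3.44% of all genes passed, 2.03% upward and 1.41% downward). It was 4.68-fold higher at 24 h than at 1.5 h (limma adjusted p = 7.99e-07, where 2.91% of all genes passed, 2.24% upward and 0.667% downward). The difference between 24 h and 6 h lost its call without 6 h replicate 2 or 3 or 24 h replicate 2 or 3 (limma adjusted p = 0.0623 to 0.135). The rises over untreated skin at 6 h and 24 h kept their calls under all 22 alternatives, between 1.41 and 1.61 and between 2.03 and 2.24 on the log2 scale. The mean of the monocyte and macrophage markers lay at 8.12 to 8.69 at 1.5 h, 8.29 to 8.83 at 6 h and 8.71 to 9.13 at 24 h. Its 6 h range overlaps with those of 1.5 h and 24 h. The part of these markers in the Il18bp values was not tested.

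**Figure D2:**
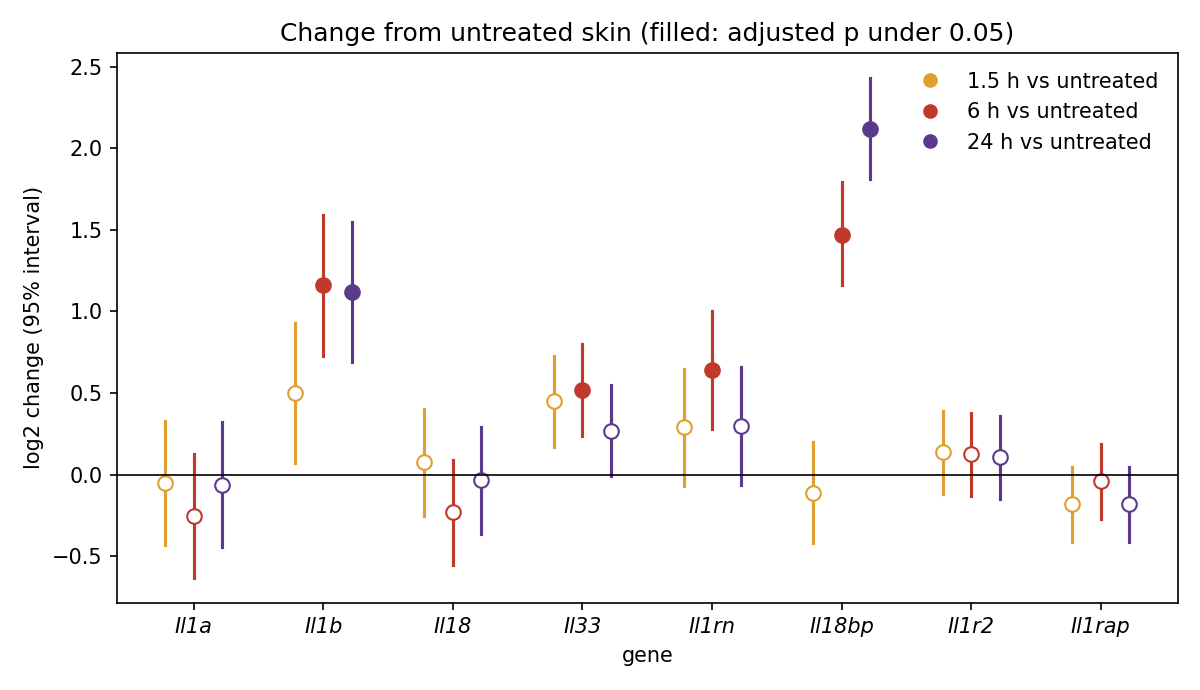
Log2 change from untreated skin (vertical axis) of 8 interleukin 1 family genes at 1.5 h, 6 h and 24 h, with 95% intervals from the limma fit. Filled points have an adjusted p under 0.05: Il1b, Il33, Il1rn and Il18bp at 6 h, and Il1b and Il18bp at 24 h.

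Il1rn, which encodes the interleukin 1 receptor antagonist, measured 8.51, 8.41 and 8.44 in untreated skin, 8.63, 8.75 and 8.85 at 1.5 h, 8.85, 8.9 and 9.54 at 6 h, and 8.6, 8.66 and 9 at 24 h. Libraries of all 3 times lay above the untreated ones, which spread little, and 6 h replicate 3 stood highest. Il1rn averaged 9.1 ± 0.39 at 6 h, against 8.45 ± 0.05 in untreated skin (SD, n = 3 each), a 1.56-fold rise (95% interval 1.21 to 2, limma adjusted p = 0.0385). Without 6 h replicate 3 the change was 0.42 in place of 0.64 (limma adjusted p = 0.108), and the call was also lost without any untreated library, without 1.5 h replicate 2, and with arrays centred on their medians (limma adjusted p = 0.0521 to 0.108 over these). At 1.5 h and 24 h the changes were 0.29 and 0.3 (limma adjusted p = 0.389 and 0.388).

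The decoy receptor gene Il1r2 and Il1rap, the shared accessory chain of the interleukin 1 and IL-33 receptors, gave no call. Il1r2 ranged from 9.03 to 9.37 in untreated skin, from 9.29 to 9.41 at 1.5 h, from 9.16 to 9.48 at 6 h and from 9.22 to 9.41 at 24 h. Its changes were 0.14, 0.13 and 0.11 (limma adjusted p = 0.591, 0.537 and 0.705), with 95% intervals that end at 0.39, 0.38 and 0.36. Il1rap ranged from 6.67 to 6.84 in untreated skin, from 6.45 to 6.69 at 1.5 h, from 6.69 to 6.83 at 6 h and from 6.5 to 6.74 at 24 h, with changes of -0.18, -0.04 and -0.18 (limma adjusted p = 0.403, 0.831 and 0.425). In each time both genes overlapped with untreated skin.

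Asked whether a gene changed at any time (moderated F test, 11.4% of all genes called), limma called Il1b (adjusted p = 0.00467) and Il18bp (adjusted p = 2.85e-07). In the same test Il33 and Il1rn had adjusted p = 0.0542 and 0.0874, and the other 4 genes between 0.404 and 0.744. Between times, no gene of the 8 other than Il1b and Il18bp was called in any of the 3 comparisons, of 6 h with 1.5 h, 24 h with 6 h and 24 h with 1.5 h.

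The antagonist and its cytokine were also set against each other within each library, as the shift of their log2 difference from the untreated mean, with no test. For Il18bp against Il18 the libraries shifted by 1.86, 1.77 and 1.48 at 6 h and by 2.1, 2.33 and 2.03 at 24 h, where the untreated libraries lay between -0.39 and 0.23. At 1.5 h it was 0.17, -0.35 and -0.38, within that range. For Il1rn against Il1b it was -0.71, -0.17 and 0.27 at 1.5 h, -1.1, -0.43 and -0.03 at 6 h, and -1.02, -1.1 and -0.35 at 24 h, where the untreated libraries lay between -0.18 and 0.1. For Il18bp against Il18 the difference thus moved toward the antagonist in the 6 libraries of 6 h and 24 h. Il18 itself changed by -0.23 and -0.03 at these times, so this shift largely repeats the rise of Il18bp given above. For Il1rn against Il1b the difference moved toward the cytokine in the 3 libraries of 24 h. In 6 h replicate 3 the shift of Il1rn against Il1b lay within the untreated range. Il1rn was not set against Il1a, so Il1b alone stands for interleukin 1 here. Il1a changed by -0.25 at 6 h and -0.06 at 24 h, beside 0.64 and 0.3 for Il1rn.

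**Figure D3:**
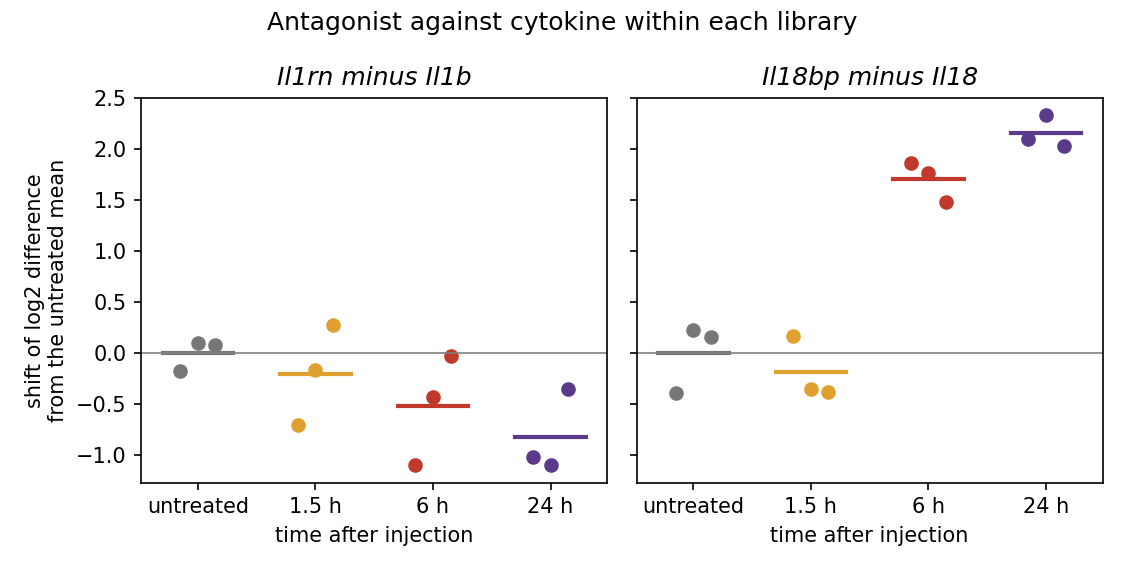
Shift of the log2 difference between antagonist and cytokine (vertical axis, log2 units, 0 is the untreated mean) in each library of untreated skin and of skin 1.5 h, 6 h and 24 h after injection, with the mean of 3 as a bar. Il18bp against Il18 lies between 1.48 and 2.33 at 6 h and 24 h, and Il1rn against Il1b between -1.1 and -0.03.

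The other genes of the interleukin 1 system moved in part with these. For comparison with the list counts that follow, 0.612%, 3.38% and 2.55% of all genes rose at 1.5 h, 6 h and 24 h. At the same times 1.59%, 2.71% and 0.808% of all genes fell. Of 5 other ligands, Il1f8, which encodes IL-36 beta, fell at 6 h and 24 h, and 4 did not pass at either time. Il1f8 averaged 5.81 ± 0.27 at 6 h and 5.54 ± 0.26 at 24 h, against 6.5 ± 0.1 in untreated skin (SD, n = 3 each), and fell by 0.69 and 0.96 (limma adjusted p = 0.0293 and 0.00461). The fall at 6 h lost its call without any untreated library or 6 h replicate 1 or 2 (limma adjusted p = 0.0559 to 0.122). The keratinocyte markers given above were also lower at 24 h: Krt1 and Lor, of the upper epidermis, fell by 0.44 and 0.46 at 24 h (limma adjusted p = 0.0436 and 0.0277), and Ivl had a change of -0.62 (limma adjusted p = 0.109). Their part in the fall of Il1f8 was not tested. The median change of these ligands was 0.07, -0.33 and -0.36 at 1.5 h, 6 h and 24 h.

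Of 6 other receptors, Il18rap, the accessory chain of the interleukin 18 receptor, rose 1.56-fold at 6 h and 1.81-fold at 24 h (limma adjusted p = 0.0294 and 0.00717), and 5 did not pass. It averaged 5.22 ± 0.14 and 5.43 ± 0.14 at these times, against 4.58 ± 0.16 in untreated skin (SD, n = 3 each). These means lie below the lowest array median of 5.53. The call at 6 h was lost when replicate 2 or 3 of untreated skin or of 6 h was left out (limma adjusted p = 0.0718 to 0.115). The median change of the 6 receptors was 0.1, 0.2 and 0.17.

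Of 13 measured genes of receptor signalling, Myd88, the adaptor of these receptors and of Toll-like receptors, rose 2.69-fold at 6 h and 1.78-fold at 24 h (limma adjusted p = 2.04e-05 and 0.00419). Peli1, a ubiquitin ligase of this route, rose 1.37-fold at 6 h (limma adjusted p = 0.0163), a call lost without any untreated library or 6 h replicate 2 (adjusted p = 0.0517 to 0.0652). The list's median was 0, -0.07 and -0.1, and 0, 2 and 1 genes were called.

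Of 17 inflammasome and processing genes, 0, 5 and 4 rose at 1.5 h, 6 h and 24 h and none fell, with medians of -0.01, 0.32 and 0.29. Casp4, a caspase that senses bacterial lipopolysaccharide, rose 3.98-fold at 6 h and 2.43-fold at 24 h (limma adjusted p = 2.52e-07 and 3.3e-05). Gsdmd, which forms the pore through which interleukin 1 beta leaves cells, rose 2.07-fold and 2.21-fold (limma adjusted p = 2.11e-05 and 1.5e-05). The DNA sensor gene Aim2 rose 1.92-fold at 6 h (limma adjusted p = 0.0144, or 0.0675 without untreated replicate 1). Casp8 rose 1.74-fold at both times (limma adjusted p = 0.00419 and 0.00527). Casp1, the enzyme that cuts the precursors, was named after its values were seen. It averaged 8.6 ± 0.22 at 6 h and 8.43 ± 0.26 at 24 h, against 7.68 ± 0.12 in untreated skin (SD, n = 3 each), and rose 1.89-fold and 1.68-fold (limma adjusted p = 0.00819 and 0.0376). The rise of Casp1 at 24 h lost its call when any untreated library, or replicate 2 or 3 of 24 h, was left out (limma adjusted p = 0.0761 to 0.16), and with the replicate number as a block (0.0555).

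Of 20 genes that interleukin 1 is known to induce, which Toll-like receptors induce as well, 5, 11 and 7 rose at 1.5 h, 6 h and 24 h and none fell. The list's median was 0.35, 1.07 and 0.62. The list was chosen with earlier results of these data known, so its counts and median are given as a description. At 1.5 h the cytokine gene Il6 rose 6.73-fold, the siderophore-binding gene Lcn2 6.69-fold and the acute phase gene Saa3 2.77-fold (limma adjusted p = 0.00535, 0.017 and 0.00791). The neutrophil chemokine Cxcl1 (2.63-fold, limma adjusted p = 0.0213) and the NF-kB cofactor Bcl3 (2.46-fold, limma adjusted p = 0.0108) were the others, named after their values were seen. Il1b and Il33 changed by 0.5 and 0.45 at 1.5 h without passing (limma adjusted p = 0.212 and 0.094). The calls therefore give no order in time between these genes and the family. Without untreated replicate 2 the 1.5 h count was 2, and the calls of Lcn2, Cxcl1 and Bcl3 were lost (limma adjusted p = 0.0792, 0.0718 and 0.0557). Cxcl1 also lost its call without untreated replicate 1 or 1.5 h replicate 3 (limma adjusted p = 0.057 and 0.0578), and Lcn2 without 1.5 h replicate 1 (0.0553). At 6 h Saa3 rose 36.7-fold, Il6 12.3-fold and the neutrophil chemokine Cxcl2 4.04-fold (limma adjusted p = 1.21e-08, 5.32e-05 and 0.00189). At 24 h Saa3 rose 108-fold, Lcn2 7.99-fold and Nos2, the inducible nitric oxide synthase, 5.46-fold (limma adjusted p = 1.97e-09, 0.00285 and 4.22e-05). Lcn2 did not pass at 6 h, where it averaged 7.88 ± 1.38, against 6.28 ± 0.39 in untreated skin (SD, n = 3 each, limma adjusted p = 0.0744). The mean of 7 glandular epithelium markers was 5.58 to 5.72 in untreated skin, 7.34 to 8.43 at 1.5 h, 5.48 to 7.88 at 6 h and 7.12 to 7.61 at 24 h, and its part in the Lcn2 values was not tested.

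**Figure D4:**
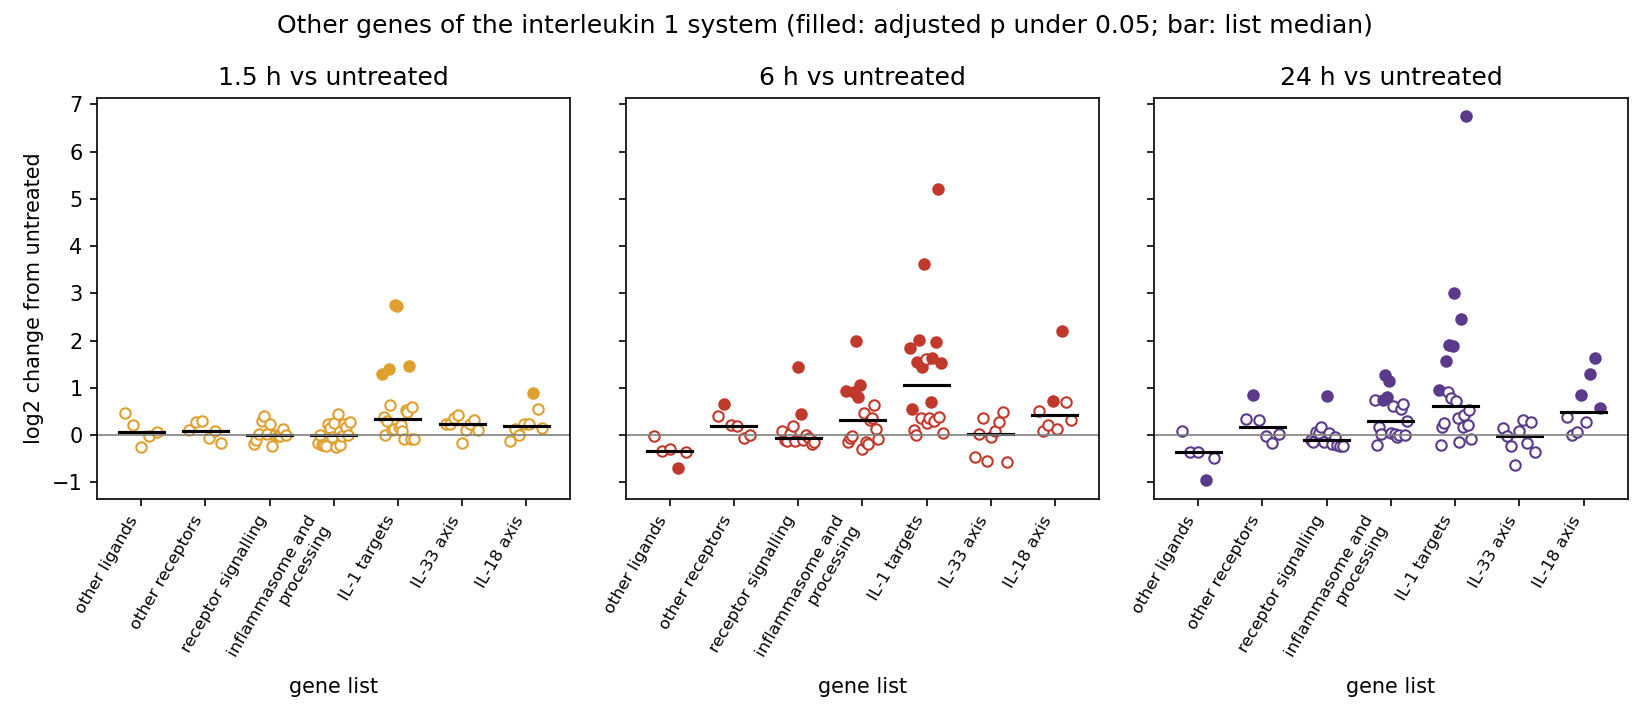
Log2 change from untreated skin (vertical axis) of each measured gene in 7 lists of the interleukin 1 system, at 1.5 h, 6 h and 24 h. Filled points have an adjusted p under 0.05 and bars are list medians, with the interleukin 1 target list at 0.35, 1.07 and 0.62. The lists were chosen with earlier results of these data known.

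Of 9 measured effectors downstream of IL-33, such as Il5, Il13 and Ccl24, 0 passed in limma at 1.5 h, 6 h or 24 h (1, 4 and 1 at an unadjusted p under 0.05). The count at 6 h was 2 without 6 h replicate 1 and 1 without 24 h replicate 3, and that at 24 h was 1 without either of them. The list had medians of 0.24, 0.03 and -0.02. Group means of Il5 (3.24 to 3.67), Il4 (4.65 to 4.98) and Il9 (4.35 to 4.84) lay below 5.53, the lowest array median. For such dim genes the lack of a call says little. Ccl24, an eosinophil chemokine, had changes of 0.42, -0.56 and -0.63 (limma adjusted p = 0.221, 0.0672 and 0.0633). Against 1.5 h it was called, with -0.98 at 6 h and -1.04 at 24 h (limma adjusted p = 0.00289 and 0.00277). Arg1, also of this list, changed by -0.72 from 1.5 h to 6 h (limma adjusted p = 0.0257). In these 2 comparisons 13.3% and 2.91% of all genes passed. Of 8 genes around interleukin 18 and gamma-interferon, 1, 2 and 4 rose and none fell, with medians of 0.19, 0.42 and 0.48. Irf1, which encodes an interferon-responsive transcription factor, rose 1.84-, 4.62- and 2.47-fold at 1.5 h, 6 h and 24 h (limma adjusted p = 0.00552, 1.22e-07 and 3.04e-05). Stat4, which carries interleukin 12 signals, rose 3.08-fold at 24 h (limma adjusted p = 0.011, or 0.0652 without 24 h replicate 3). It averaged 4.69 ± 0.29 at 24 h, against 3.06 ± 0.07 in untreated skin (SD, n = 3 each). Both means lie below the lowest array median of 5.53. The interleukin 12 receptor gene Il12rb1 rose 1.66-fold and 1.79-fold at 6 h and 24 h (limma adjusted p = 0.0473 and 0.0341), and with the replicate number as a block neither passed (0.0726 and 0.0586). At 6 h that call was also lost without each of 10 libraries, and at 24 h when replicate 2 or 3 of untreated skin or of 24 h was left out (limma adjusted p up to 0.184 and 0.15). Tbx21, the T-bet gene of type 1 lymphocytes, was named after its values were seen and rose 1.49-fold at 24 h (limma adjusted p = 0.011, or 0.0574 without untreated replicate 3). Ifng itself, which interleukin 18 helps to induce, averaged 4.67 ± 0.36 at 6 h and 4.55 ± 0.18 at 24 h, against 4.16 ± 0.18 in untreated skin (SD, n = 3 each, limma adjusted p = 0.0869 and 0.249). These means of Ifng also lie below 5.53.

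The genes whose pattern over the 12 arrays was most like that of Il18bp were Klrk1, which encodes the natural killer receptor NKG2D, Tmsb10, an actin-binding thymosin, and Fcgr4, an Fc receptor of myeloid cells (Pearson's r = 0.985, 0.983 and 0.979). For Il1b they were Shisa5, Hdc, which makes histamine, and Dapp1, a signalling adaptor (r = 0.958, 0.95 and 0.938). With group means taken out, r was 0.707, 0.73 and 0.653 for Il18bp and 0.865, 0.883 and 0.899 for Il1b. The arrays fall into 4 groups that drive much of such an r, so it is given as a description. The genes were picked by the highest r over these same arrays. The r with group means taken out is therefore no separate check.

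Array medians lay between 5.53 and 5.76, and arrays correlated at r = 0.98 to 0.987 within groups and 0.961 to 0.986 between groups. Markers of other tissues in the biopsies also differed between libraries, beside those of glandular epithelium given with Lcn2 and of lymph node given with Il1b. The mean of 8 skeletal muscle markers was 10.96 to 11.08 in untreated skin, 11.1 to 12.18 at 1.5 h, 10.61 to 11.38 at 6 h and 10.67 to 12.08 at 24 h. That of 7 measured sebaceous gland markers was 8.58 to 8.92 in untreated skin, 7.47 to 8.18 at 1.5 h, 8.31 to 8.44 at 6 h and 7.98 to 8.29 at 24 h. The part of these tissues in the results was not tested. Skin was recognised by its keratinocyte markers, 8 of 8 measured, and by 8 of 8 fibroblast markers, whose mean level lay between 10.25 and 11.11.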

How the data were processed

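Total RNA of 12 skin biopsies was amplified, labelled with biotin and hybridised to Affymetrix Mouse Gene 1.0 arrays, per the labels' protocols. The deposited values are log2 intensities per probe set; the submitters' processing notes name RMA and Expression Console 1.1. They carry no detection call. Of 35556 probe sets, 21789 had 1 gene symbol in the platform annotation, 1621 had several and the rest were not listed. Where a symbol had several probe sets, that with the highest mean was kept, leaving 19938 genes. Groups were fitted together with limma 3.58.1 in R 4.3.3 (lmFit and eBayes, 8 residual and 5.24 prior degrees of freedom, two-sided). P-values were adjusted by Benjamini-Hochberg over all 19938 genes in each of 6 comparisons. An exact permutation test of 3 against 3 cannot pass, so none was used; the number of arrays limits the precision. The labels call the samples biological replicates. Same-numbered samples did not in general deviate together (4 of 18 pairs correlated above 0.1), so the numbers were not used to pair them. Their r ran from -0.215 to 0.334, and that of pairs with unlike numbers from -0.285 to 0.238. The highest r was that of 1.5 h replicate 1 with 6 h replicate 1, the libraries high in Glycam1. The genes and lists were chosen with earlier results of these data known. Of each list up to 3 called genes with the largest change are named, and 1 called the other way; of genes like a member, the 3 highest by r. The fit was tested on simulated data. Alternatives were a replicate block, other scalings, filters, variance models, array weights, thresholds and left-out libraries. Coordinates of probe sets were not used here.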

Additional observations from a re-analysis of the deposited data

Results flagged for a closer look

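Of the 8 genes, 2 had effects that differed between times by the limma test of the difference itself. Of all genes, 13.3% passed for 6 h against 1.5 h, 3.44% for 24 h against 6 h and 2.91% for 24 h against 1.5 h. Il1b was 0.66 higher on the log2 scale at 6 h than at 1.5 h (adjusted p = 0.0433, limma). That call was lost in 10 of 22 alternatives, and the libraries of these times overlap. Il18bp was 1.58 higher at 6 h than at 1.5 h (adjusted p = 8.74e-06, limma), 0.65 higher at 24 h than at 6 h (adjusted p = 0.0313, limma) and 2.23 higher at 24 h than at 1.5 h (adjusted p = 7.99e-07, limma). Of these differences, that between 24 h and 6 h lost its call in 7 of 22 alternatives. Groups of 3 are too small for a test of single outlying samples, and none was made.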

How the results depend on the processing

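The count of called genes among the 8 stayed at 0 at 1.5 h and at 2 at 24 h under all 24 alternatives. The count at 6 h, 4 in the fit reported, was 2 with the 6 h and untreated groups alone, with arrays centred on their medians, at an adjusted p under 0.01 and with a 2-fold minimum, and between 2 and 4 with 1 library left out. Between 1.5 h and 6 h the count of 2 was 1 with the groups compared alone, with centred arrays, at an adjusted p under 0.01 and with a 2-fold minimum, and 1 to 2 with 1 library left out. Between 6 h and 24 h the count of 1 was 0 with the groups compared alone, after cyclic loess, with array weights, at an adjusted p under 0.01 and with a 2-fold minimum, and 0 to 1 with 1 library left out. Between 1.5 h and 24 h the count of 1 was 2 with the replicate block and without both libraries high in Glycam1, and 1 to 2 with 1 library left out. The F test called 4 in place of 2 after cyclic loess, 3 with the replicate block, and 2 to 3 with 1 library left out. With the replicate block, Il1b between 24 h and 1.5 h gained a call (0.62, limma adjusted p = 0.0497), Il12rb1 at 6 h and 24 h and Casp1 at 24 h lost theirs, and no other call among the 76 gene results changed. The block also gave 1 in place of 0 called among the IL-33 effectors at 24 h.

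Small changes that did not pass took the opposite sign in places. Il1a at 1.5 h was 0.05 with centred arrays, 0 after quantile normalization and -0.15 to 0.07 with 1 library left out, and at 24 h it was -0.24 to 0.06 with 1 left out. Il18 was -0.01 to 0.22 at 1.5 h and -0.19 to 0.11 at 24 h with 1 left out, and 0.02 at 24 h with centred arrays. Il1rap at 6 h was 0.02 after quantile normalization and 0.03 after cyclic loess. Il1b between 24 h and 6 h was 0.13 without both libraries high in Glycam1, 0.05 with centred arrays, 0.03 with array weights and -0.18 to 0.13 with 1 left out. Over 76 gene results and 1667 recomputed values, 109 lost a call, 3 gained one and 18 had the opposite sign; the cause was not tested. Centring moved the median of all genes by -0.13 between 6 h and 1.5 h and by 0.1 or less elsewhere. The dim filter kept all 8 genes. Of the called list genes it removed Stat4, Tbx21, Il18rap and Cxcl5. For the lists, counts over the alternatives at 1.5 h, 6 h and 24 h ran from 2 to 6, 9 to 12 and 6 to 9 for interleukin 1 targets. At 6 h and 24 h they ran from 0 to 1 and 1 to 2 for other ligands, 0 to 2 and 0 to 1 for other receptors, 1 to 2 and 1 to 1 for signalling, 4 to 6 and 3 to 7 for inflammasome genes, 0 to 2 and 0 to 1 for IL-33 effectors, and 1 to 2 and 2 to 4 for the interleukin 18 list. At 6 h the interleukin 18 list kept its count of 2 in 6 of 22 alternatives. The count of inflammasome genes at 24 h was 7 with centred arrays and with array weights. At 1.5 h the lists other than interleukin 1 targets kept their counts under all 22.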
